A study of Gorilla gorilla gorilla with 13 samples.

Results

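Long intergenic noncoding RNAs (lincRNAs) with a registry number of the form LINC and digits were described here in sorted cells of gorilla cerebral organoids. The members are the 197 rows with such a name and a summed count of at least 1000 over the 13 libraries, in the larger of 2 deposited count tables. That table is named for the gorilla build gorGor6, but most of its gene names are not in the gorilla RefSeq annotation, and the genome it was counted on is not settled here. They are 197 of 2104 rows with a LINC number and of 60583 named rows in all. Of the other 1907 LINC rows, 111 were at 0 in every library. The members were thus chosen by their summed counts, which ran from 1006 to 274284 with a median of 1929. LINC02192 (1006) and LINC02436 (1012) stood just inside the threshold, and LINC01697 (997) and LINC00645 (991) just outside it.

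LincRNAs are transcripts, often spliced and polyadenylated, that lie between protein-coding genes and carry no long reading frame. Many are retained in the nucleus, many are transcribed near a gene for a transcription factor of the same tissue, and some are the precursors from which microRNAs are cut. A LINC number is a registry name given to a human gene without a known function, so most members have no described role. In the developing cortex many lincRNAs are known to be made in 1 cell type and to be scarce in whole tissue.

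The libraries came from organoids, brain-like tissue grown in culture, of 1 gorilla induced pluripotent stem cell line (GC1) at week 8. Cells were sorted by fluorescence. The libraries hold BCL11B+ neurons (N, n = 2), basal intermediate progenitor cells (bIP, n = 3), basal radial glia (bRG, n = 4) and apical radial glia (aRG, n = 4), with no treatment or mutation. Radial glia are the stem cells of the cortex. The apical kind keeps contact with the ventricle, the basal kind has lost it, and intermediate progenitors are the committed cells that radial glia give rise to. Smart-seq2 libraries were made with a dT primer, so transcripts without a poly(A) tail were not targeted, and amplified by PCR without molecular identifiers. Whether the libraries of 1 population were grown as separate cultures is not stated, so each p-value measures the scatter among the libraries at hand and that scatter may be technical. In sorted bulk RNA, fewer cells of a type and less RNA per cell cannot be told apart.

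Total counts were 11835004 to 26173260 per library. Levels are CPM, the usual depth-scaled counts, after TMM normalization, which equalises the bulk of genes between libraries, and are not corrected for transcript length. The summed level of 8 radial glia markers was 77.3 to 104 CPM in N, 102 to 116 in bIP, 1844 to 3534 in bRG and 2446 to 3407 in aRG, and that of 8 neuron markers 4786 to 5018 CPM in N, 3115 to 3253 in bIP, 436 to 654 in bRG and 370 to 590 in aRG. The 6 intermediate progenitor markers did not peak in bIP (81.1 to 314 CPM) but in bRG (443 to 609), against 62.5 to 100.3 in N and 165 to 342 in aRG. Of other cell types, 5 Cajal-Retzius neuron markers reached 990 to 2753 CPM in bIP, against at most 177 elsewhere, and 5 choroid plexus and hem markers 1470 to 7318 CPM in aRG, against at most 1093 elsewhere. The 5 mesenchyme markers summed to 80.4 to 291 CPM in aRG and at most 86.3 elsewhere, and lists for microglia, oligodendrocyte lineage, interneurons and pluripotent cells to at most 55.9 CPM in any library. The part of these cells in the results below was not tested. In bRG library 3 the nuclear RNA MALAT1 took 21.3% of counts, against 6.35% to 10.8% in the other 12 libraries.

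Each library spent under 1% of its reads on the members. The members took 0.660% and 0.670% of counts in N, 0.576% to 0.663% in bIP, 0.591% to 0.727% in bRG and 0.522% to 0.633% in aRG, so bIP, bRG and aRG overlapped each other, and N overlapped bIP and bRG and lay above aRG. As a share of the TMM-scaled total, N (0.753% and 0.789%) lay above both bIP (0.532% to 0.654%) and aRG (0.528% to 0.630%), and bRG library 3 stood highest of all (0.864%) where by raw share it stood lowest of bRG. Of the 197, 191 had a count in every library. A pair of members, LINC00461 and LINC00632, took 30.7% of all member counts, and 12 members took 60.5%. The mean level was highest in bRG for 85 members, in N for 46, in aRG for 34 and in bIP for 32, and it was lowest in N for 88. The bRG means include library 3, and the same counts over all genes are not given here. The highest population mean was a median of 2.37 times the lowest. Because the rule sums over all libraries, 75 members would fall under 1000 counts without the population where their level is highest, and 122 would not. For a member among the 75 a difference between populations can follow in part from the rule, and those described below are marked.

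**Figure D1:**
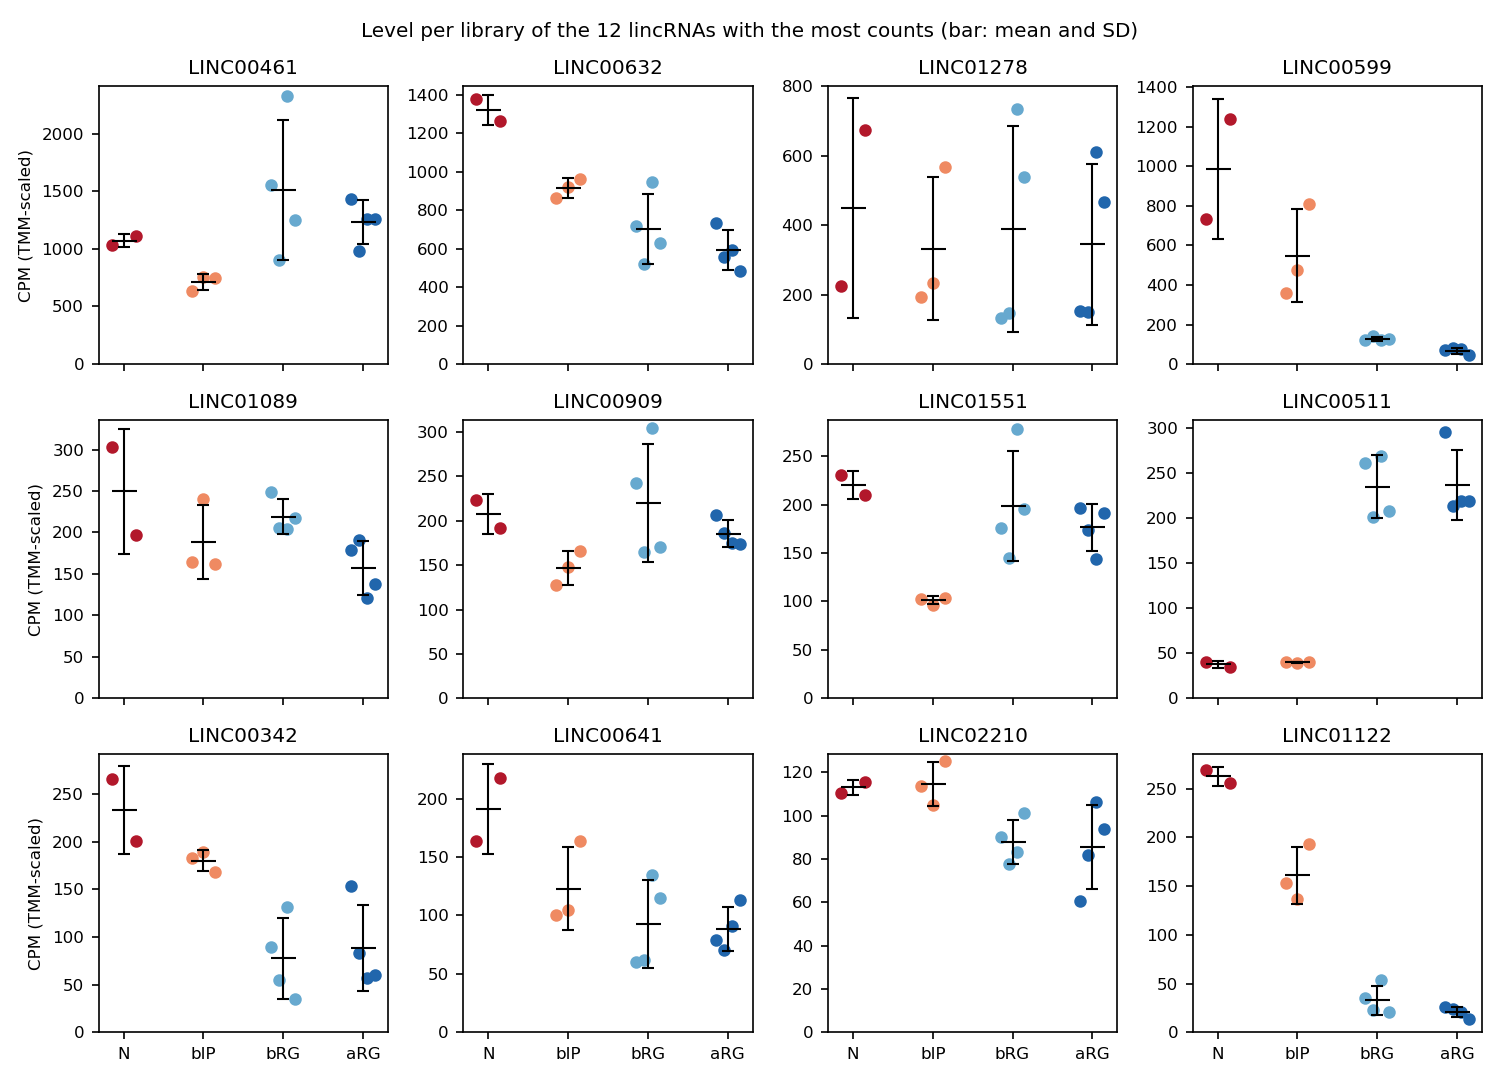
Level of the 12 members with the most counts, in TMM-scaled CPM (y axis, linear, from 0), for N, bIP, bRG and aRG (x axis). Each point is a library and each bar a mean with its SD. LINC00599 and LINC01122 stand higher in N and bIP than in bRG and aRG, LINC00511 stands lower there, and LINC01278 is split within every population.

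All comparisons used edgeR's quasi-likelihood test with adjusted p-values under 0.05 as calls, and all 197 members were tested among 38520 genes. Among the 4 populations together 49 members differed, against 10.7% of all genes tested and 24.2% of the 15058 genes with a summed count of at least 1000. In N against aRG 39 members were called (19.8% of them), against 8.97% of all genes and 20.2% of genes with at least 1000 counts. Of these members 19 were higher, where 4.44% of all genes and 10.6% of those with at least 1000 counts were higher, and 20 were lower, where 4.54% and 9.63% were lower. In N against bRG 44 were called (22.3%), against 9.31% and 20.4%. Of these 15 were higher (5.03% of all genes, 11.9% of those with at least 1000 counts) and 29 were lower (4.28% and 8.5%). In bIP against aRG 32 were called (16.2%), against 8.05% and 18.9%, with 12 higher (3.74% and 8.83%) and 20 lower (4.31% and 10.1%). In bIP against bRG 31 were called (15.7%), against 7.44% and 17.3%, with 10 higher (3.98% and 9.37%) and 21 lower (3.46% and 7.94%). In each of these comparisons the share of members called, higher and lower together, was near that of genes with at least 1000 counts. Against bRG, for both N and bIP, such genes were called higher more often than lower, and the members lower more often than higher. The members lower in both include LINC00708, LINC01852 and LINC01630, which reach 1000 counts only with bRG. The rule sums over 4 bRG libraries, against 2 of N and 3 of bIP, and its part in this direction was not tested. The median log2 fold change of the members was -0.37 in N against aRG and -0.50 in N against bRG. Over all genes tested it was -0.29 and -0.37, and over genes with at least 1000 counts 0.11 and 0.15. For the members it was -0.05 in bIP against aRG and -0.28 in bIP against bRG. Over all genes tested it was -0.03 and -0.10 there, and over genes with at least 1000 counts 0.01 and 0.04.

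The counts of calls rested on few libraries. Without N library 1, 19 members were called in N against aRG (4.54% of all genes tested) and 16 in N against bRG (4.36%). Without the unnumbered N library, 16 were called in N against aRG (4.32% of all genes) and 17 in N against bRG (3.77%). Without bIP library 1, 2 or 3, 21, 20 and 19 were called in bIP against aRG. There 5.54%, 5.6% and 6.09% of all genes were called, and 13.4%, 13.5% and 14.5% of those with at least 1000 counts. In bIP against bRG 23, 17 and 19 members were called in these removals. There 4.93%, 4.98% and 5.23% of all genes were called, and 11.7%, 12.1% and 12.3% of those with at least 1000 counts. Calls over all genes thus became fewer in the same removals. Since every member has at least 1000 counts, the share of such genes is the closer comparison. In each removal of an N library, which leaves 1 library in N, members were called less often than such genes. A call held in every removal of a library of the populations compared for 11, 10, 17 and 14 members in N against aRG, N against bRG, bIP against aRG and bIP against bRG. The share of all genes whose call held in this way is not given here, so whether these counts are usual was not tested.

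**Figure D2:**
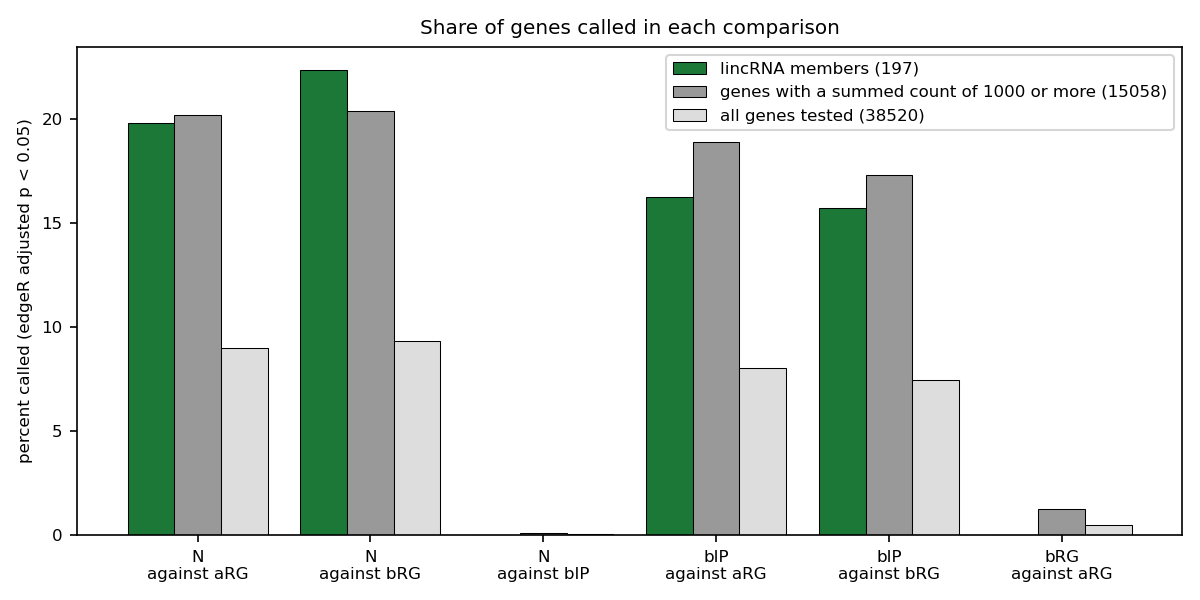
Percent of genes called by edgeR (y axis) in each comparison (x axis), for the 197 members, for the 15058 genes with a summed count of at least 1000 and for all 38520 genes tested. In N against aRG the bars stand at 19.8%, 20.2% and 8.97%, and no member was called in N against bIP or in bRG against aRG.

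The first set of members was high in both kinds of radial glia and near 0 in N and bIP. LINC01965 measured 1.02 and 2.21 CPM in N and 3.20, 7.42 and 4.46 in bIP, against 99, 85, 160 and 78.9 in bRG and 95.7, 117, 81.5 and 105 in aRG. The populations did not overlap, with every radial glia library more than 10 times above every N and bIP library. Its log2 fold change was -5.93 in N against aRG (SE 0.526, edgeR adjusted p = 2.62e-07), -6.01 in N against bRG (SE 0.528, 3.97e-07), -4.31 in bIP against aRG and -4.39 in bIP against bRG. LINC01159 measured 1.49 and 0.270 CPM in N and 1.89, 2.58 and 0.891 in bIP, against 22.2, 27.9, 49.8 and 40.3 in bRG and 30.8, 37.7, 28.9 and 45.7 in aRG. It fell by 5.37 and 5.34 on the log2 scale in N against aRG and bRG and by 4.33 and 4.30 in bIP against aRG and bRG. All 8 of these calls held in every removal of a library.

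LINC00511, which in human lies in the gene-poor region around SOX9, a transcription factor of neural stem cells, was lower in N and bIP. It measured 40.2 and 34.9 CPM in N and 40.0, 39.3 and 40.5 in bIP, against 261, 201, 268 and 207 in bRG and 295, 213, 219 and 218 in aRG. The radial glia libraries lay above all of N and bIP, and within each pair the ranges met. The log2 fold change was -2.65 in N against aRG (SE 0.308, edgeR adjusted p = 4.76e-06), -2.64 in N against bRG, -2.57 in bIP against aRG and -2.55 in bIP against bRG. SOX9 itself averaged 48.9 ± 8.63 CPM in N, 33.6 ± 12 in bIP, 115 ± 54.8 in bRG and 138 ± 49.5 in aRG. Its log2 fold changes were -1.50, -1.24, -2.04 and -1.78 in the same comparisons, all called but that of N against bRG (edgeR adjusted p = 0.0771).

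Further members were lower in N and bIP. LINC00391 averaged 0.500 ± 0.644 CPM in N and 0.281 ± 0.313 in bIP, against 8.84 ± 2.72 in bRG and 13 ± 3.31 in aRG (SD, n = 2, 3, 4 and 4), with log2 fold changes of -5.44 and -4.89 in bIP against aRG and bRG. Its changes of -4.73 and -4.17 in N against aRG and bRG were no longer called without the unnumbered N library (edgeR adjusted p = 0.0608 and 0.119). LINC01896 fell by 4.17 and 3.50 in bIP against aRG and bRG, at 0.223 to 1.74 CPM in bIP, 5.03 to 17.6 in bRG and 8.03 to 26.5 in aRG. LINC01630 fell by 4.16 and 4.38 in N against aRG and bRG, at 0.657 and 0.495 CPM in N and 6.08 to 13.3 in aRG, and it stood between them in bIP at 2.94 to 4.72. LINC00708 fell by 3.16 in bIP against bRG, with bRG library 3 at 17.9 CPM and the other bRG libraries at 4.91 to 7.34. All 4 of these members are among the 75 that reach 1000 counts only with their highest population, aRG for LINC00391 and LINC01896 and bRG for LINC01630 and LINC00708, so their falls against it are a description.

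LINC01833 and LINC02595 were lower in bIP than in aRG but uneven within the radial glia. LINC01833 measured 0.436 to 1.03 CPM in bIP and 9.52 to 69.7 in aRG (a log2 difference of -5.32, SE 1.19, edgeR adjusted p = 0.00503). In bRG it measured 14.8, 65.1, 0.0572 and 10.2 CPM, with library 3 below every bIP library. LINC02595 measured 13.1 to 24.6 CPM in bIP and 53.2, 49.9, 187 and 221 in aRG (a log2 difference of -2.86, SE 0.576, edgeR adjusted p = 0.002). The higher aRG values were those of libraries 3 and 4. In bRG it averaged 81.9 CPM, and its range there met that of bIP. The log2 difference in bIP against bRG was -2.22 (SE 0.559, edgeR adjusted p = 0.0145). LINC01852 was called lower in N and bIP against both radial glia populations, and each of these calls ended in at least 2 removals (log2 fold change -3.73 in N against bRG, edgeR adjusted p = 0.183 without N library 1 and 0.0554 without bRG library 4). It reaches 1000 counts only with bRG.

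Another 6 members kept a call in every removal, all named after their values were seen, and 5 of them were lower. LINC00472 measured 27.6 and 16.4 CPM in N and 22.3, 29.1 and 25.8 in bIP, against 88.1, 66, 115 and 71.6 in bRG and 89.4, 62.3, 63.7 and 71.7 in aRG. All radial glia libraries lay above all of N and bIP, and it fell by 1.48 and 1.72 in bIP against aRG and bRG and by 1.95 in N against bRG. LINC01355 measured 25, 30.2 and 37.5 CPM in bIP, against 59 to 127 in bRG and 66 to 109 in aRG, and fell by 1.42 and 1.49 in bIP against aRG and bRG. LINC00928 measured 8.13, 8.82 and 6.11 CPM in bIP, against 23.3 to 46.7 in bRG and 22.8 to 32.2 in aRG, and fell by 1.90 and 2.15. LINC00910 was graded, at 14.5 and 11.3 CPM in N, 23.2, 19.3 and 16.7 in bIP, 39.7, 28.7, 24 and 20.2 in bRG and 85.5, 44.2, 52.9 and 46.5 in aRG. It fell by 2.15 in N against aRG and by 1.54 in bIP against aRG, and every aRG library lay above every bRG library (log2 fold change -1.03 in bRG against aRG, edgeR adjusted p = 0.244). LINC02035 was the one of the 6 that rose, by 1.62 in N against aRG, at 64.3 and 58.6 CPM in N and 16.7 to 22 in aRG. LINC01572 is described with the comparison of bRG and aRG.

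The second set was high in N and bIP. LINC00599, the host transcript of a copy of miR-124, a microRNA abundant in neurons, measured 734 and 1236 CPM in N and 359, 476 and 810 in bIP, against 120, 141, 122 and 129 in bRG and 70.2, 80.8, 74.0 and 43.8 in aRG. N and bIP overlapped each other and lay above all radial glia, and bRG lay above aRG without overlap. It rose by 3.87 on the log2 scale in N against aRG (SE 0.331, edgeR adjusted p = 1.98e-07), 2.95 in N against bRG, 3.03 in bIP against aRG and 2.10 in bIP against bRG. Its log2 fold change of 0.93 in bRG against aRG was not called (SE 0.276, edgeR adjusted p = 0.268), nor was that of 0.85 in N against bIP (SE 0.348, edgeR adjusted p = 0.799). MIR124-2HG, the host of another copy of miR-124, had no called difference, at 169 ± 39.5 CPM in N, 144 ± 39.6 in bIP, 219 ± 103 in bRG and 130 ± 20.6 in aRG.

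LINC01122 measured 270 and 256 CPM in N and 153, 136 and 193 in bIP, against 35.1, 22.5, 53.4 and 21.4 in bRG and 26.1, 23.8, 20.8 and 14.1 in aRG. N lay above bIP and bIP above all radial glia. It rose by 3.63 in N against aRG (SE 0.350, edgeR adjusted p = 6.26e-07), 2.99 in N against bRG, 2.93 in bIP against aRG and 2.28 in bIP against bRG. LINC02607 was near 0 in radial glia, at 46.7 and 65.4 CPM in N, 33.8, 35.3 and 50.5 in bIP, 0.614, 2.43, 2.80 and 0.259 in bRG and 4.5, 5, 1.49 and 3.84 in aRG. Its log2 fold changes were 3.92 and 5.19 in N against aRG and bRG and 3.43 and 4.70 in bIP against aRG and bRG. Each call of LINC00599, LINC01122 and LINC02607 in these 4 comparisons held in every removal.

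LINC00884 rose by 1.85 and 1.89 in N against aRG and bRG and by 1.70 and 1.73 in bIP against them, at 63.2 ± 8.11 CPM in N, 56.9 ± 7.72 in bIP, 17.1 ± 6.51 in bRG and 17.5 ± 4.30 in aRG. LINC02600 rose by 3.68 in N against bRG, at 16.7 and 18.6 CPM in N and 0.229 to 3.41 in bRG. LINC01756 rose by 3.77 in bIP against bRG, at 4.64 to 12.9 CPM in bIP and 0.153 to 1.51 in bRG. LINC01618 rose by 2.47 in bIP against aRG, but this call ended in each removal of a bIP or aRG library (edgeR adjusted p of 0.0553 to 0.116). LINC02600 and LINC01756 reach 1000 counts only with N and LINC01618 only with bIP, the population where each was highest, so these rises too are a description.

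Smaller rises were seen among the most counted members. LINC00632, in human the locus of the circular RNA CDR1as that binds miR-7 in neurons, measured 1378 and 1265 CPM in N and 862 to 965 in bIP, against 519 to 946 in bRG and 483 to 732 in aRG. Its log2 fold change was 1.16 in N against aRG (SE 0.274, edgeR adjusted p = 0.0076), no longer called without N library 1 (0.0693) or the unnumbered one (0.0587). It was also called in N against bRG (log2 fold change 0.91, edgeR adjusted p = 0.0403), and not in 5 of 6 removals (0.0807 to 0.242). LINC00342 was called in N against bRG (log2 fold change 1.58, edgeR adjusted p = 0.0177), though not in every removal. In N against aRG both LINC00342 (log2 fold change 1.40) and LINC00641 (1.11) were called. In this comparison the call of LINC00342 ended without aRG library 2, 3 or 4 (edgeR adjusted p of 0.0734 to 0.108). That of LINC00641 ended without aRG library 1, 2 or 3 (0.0699 to 0.0994). Both ended without N library 1 (0.241 and 0.0746) and without the unnumbered one (0.099 and 0.418).

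**Figure D3:**
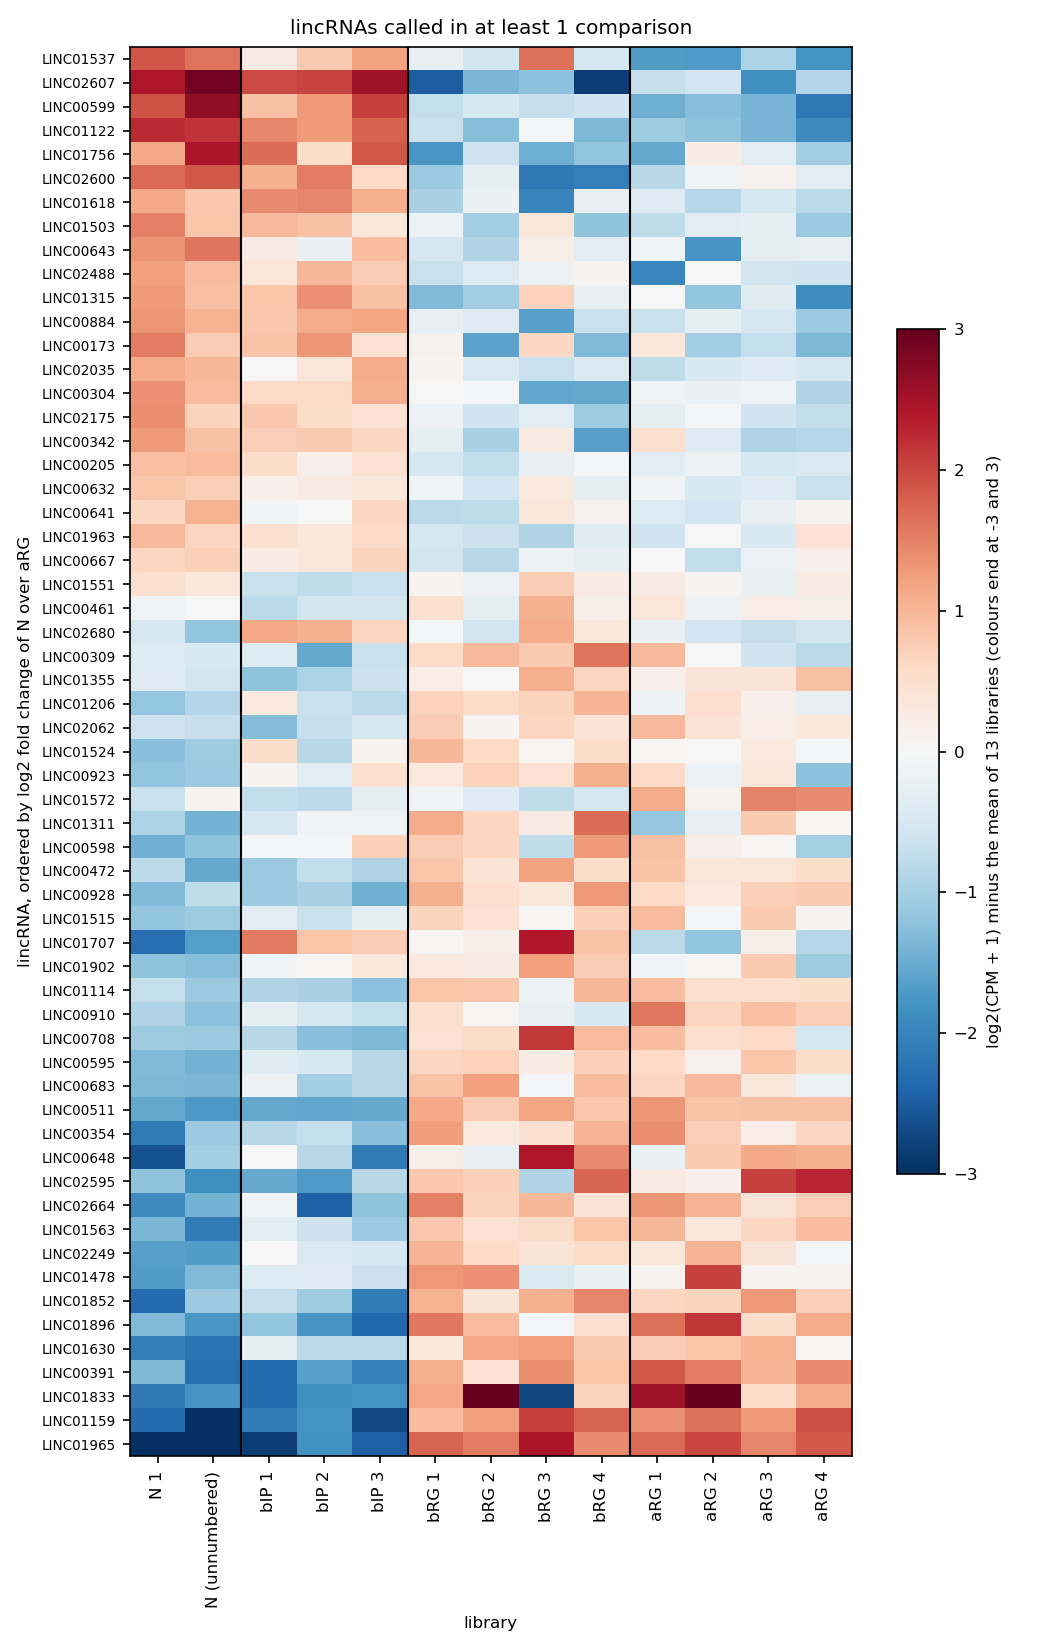
The 59 members called in at least 1 comparison (rows, ordered by the log2 fold change of N over aRG) in 13 libraries (columns, grouped as N, bIP, bRG and aRG). Colour is log2(CPM + 1) minus the mean of the row, red above and blue below it, ending at -3 and 3. LINC02607, LINC00599 and LINC01122 are red in N and bIP, and LINC01159 and LINC01965 are blue there. The share of all genes called in at least 1 comparison is not given here.

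Other members had no called difference or stood lowest in bIP. LINC00461, host of a copy of miR-9, a microRNA of neural progenitors, took the most counts of all members. It measured 1030 and 1111 CPM in N and 632, 756 and 750 in bIP, against 1553, 905, 2328 and 1250 in bRG and 1434, 979, 1260 and 1257 in aRG. The bIP libraries lay below all others. It was called in bIP against bRG alone (a log2 difference of -1.08, SE 0.289, edgeR adjusted p = 0.022), but not without bIP library 1 (0.0845). In bIP against aRG it was called only when bRG was left out of the fit (0.012) or lacked library 3 (0.0107). MIR9-3HG, host of another copy of miR-9, averaged 100.2 ± 9.31 CPM in N, 116 ± 55.1 in bIP, 726 ± 104 in bRG and 692 ± 106 in aRG. Its log2 fold change was -2.79 in N against aRG (SE 0.367, edgeR adjusted p = 2e-05). The difference between the hosts was not tested. MEF2C, a transcription factor of neurons whose human gene neighbours LINC00461, averaged 73.3 ± 7.2 CPM in N and 28.6 ± 8.01 in aRG (log2 fold change 1.36, edgeR adjusted p = 0.071).

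LINC01551 also stood lowest in bIP. It measured 230 and 210 CPM in N and 103, 96.4 and 104 in bIP, against 175, 145, 278 and 195 in bRG and 197, 174, 144 and 192 in aRG. It fell by 0.97 in bIP against bRG (SE 0.260, edgeR adjusted p = 0.0221), with adjusted p of 0.0547 without bIP library 1 and 0.0605 without bIP library 2. LINC01089, LINC00909, LINC02210, LINC00467, from which a small mitochondrial protein has been described in human, and LINC00339, a neighbour of CDC42 in human, were called in none of the 6 comparisons. LINC02210 averaged 113 ± 3.42 CPM in N, 115 ± 10.2 in bIP, 87.9 ± 10.2 in bRG and 85.7 ± 19.4 in aRG. CDC42, a small GTPase of cell shape, averaged 122 ± 23.1 CPM in N and 45.3 ± 6.19 in aRG (log2 fold change 1.44, edgeR adjusted p = 0.00094), and LINC00339 8.96 ± 6.68 and 7.83 ± 0.948.

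No member was called in bRG against aRG, where edgeR called 0.496% of all genes tested and 1.26% of those with at least 1000 counts. At an unadjusted p under 0.05 there were 17 members, against 6.43% of all genes tested, 12 of them higher (2.26%) and 5 lower (4.17%) in bRG. The share of genes with at least 1000 counts at an unadjusted p is not given here, so no excess is read from these counts. DESeq2 called 3 members, against 1.35% of all genes with an adjusted p there and 2.32% of those with at least 1000 counts. With a term for the library numbers 1 and 2 against 3 and 4 edgeR called 1 (0.582% of all genes). Without the low-count filter it called 1 (0.39%). The 3 that DESeq2 called were LINC01537, LINC01707 and LINC01572, the last of them named after its values were seen. LINC01537 measured 2.92, 2.09, 13.3 and 2.16 CPM in bRG and 0.425, 0.400, 1.35 and 0.312 in aRG, and every bRG library lay above every aRG library. Its log2 fold change was 2.99 (SE 0.682, edgeR adjusted p = 0.053). It was called without aRG library 3 (0.0285), bRG library 2 (0.0466) or bRG library 4 (0.0482). It rests on few reads, 38 to 232 counts in bRG and 5, 6, 30 and 6 counts in aRG. In N and bIP it measured 13.1 to 15.7 and 4.43 to 9.54 CPM, and it rose by 4.48 and 3.43 against aRG. It reaches 1000 counts only with N.

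LINC01572 went the other way, at 12.0, 9.63, 7.15 and 8.76 CPM in bRG and 29.1, 13.9, 37.7 and 35.9 in aRG. The populations did not overlap, and aRG library 2 stood closest to bRG. The log2 fold change was -1.64 (SE 0.374, edgeR adjusted p = 0.053), called without aRG library 2 (0.028). In bIP against aRG it fell by 1.82 (edgeR adjusted p = 0.00619), with 7.26, 7.01 and 10.4 CPM in bIP. LINC01707 measured 9.13, 10.1, 50.8 and 16.7 CPM in bRG and 4.59, 3.33, 10.2 and 4.47 in aRG, and these ranges met (log2 fold change 1.94, edgeR adjusted p = 0.17).

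No member was called in N against bIP either, where edgeR called 0.0441% of all genes tested. At an unadjusted p under 0.05 there were 17 members, against 5.86% of all genes tested, 3 of them higher (0.916%) and 14 lower (4.94%) in N. The share of genes with at least 1000 counts at an unadjusted p is again not given. DESeq2 called 5 members, against 0.868% of all genes with an adjusted p there and 1.02% of those with at least 1000 counts. LINC01707 measured 1.02 and 2.12 CPM in N and 28.2, 16.5 and 15.6 in bIP, with no overlap (a log2 difference of -3.67, SE 0.781, edgeR adjusted p = 0.114). Its difference was called without bRG library 3, which shares the estimate of the spread (0.0151). It fell by 3.78 in N against bRG (edgeR adjusted p = 0.00234), but not without N library 1 (0.0633). LINC01551, at 230 and 210 CPM in N and 96.4 to 104 in bIP, had a log2 fold change of 1.12 in N against bIP (SE 0.299, edgeR adjusted p = 0.348), called at 0.0437 without bRG library 3. The other 3 that DESeq2 called were LINC01630 (log2 fold change by edgeR -2.61), LINC02680 (-1.97) and LINC02249 (-2.39), the last 2 named after their values were seen. LINC02249 and LINC01630 reach 1000 counts only with bRG.

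To see whether calls recur in other libraries, comparisons that share none were set side by side. They still share 1 fit and its estimate of the spread. Of the 19 members higher in N against aRG, 8 (42.1%) were also called higher in bIP against bRG, which is 80% of the 10 called there. Over all genes tested the same shares were 64.5% and 71.9%. Of the 20 lower in N against aRG, 14 (70%) were called lower in bIP against bRG, 66.7% of its 21, where over all genes the shares were 55.3% and 72.6%. All 19 and all 20 had the same sign in bIP against bRG, as had 99.7% and 94.8% of all genes called higher and lower. In N against bRG and bIP against aRG, 7 members were called higher in both (46.7% of the 15 and 58.3% of the 12, against 55.5% and 74.6% over all genes). Another 16 were lower in both (55.2% of the 29 and 80% of the 20, against 58.9% and 58.5%). All 15 higher and 25 of the 29 lower in N against bRG had the same sign in bIP against aRG, as had 97.6% and 93.4% of all genes called. Calls of genes at large recurred in these pairs as well. Some recurring members are among the 75 that reach 1000 counts only with their highest population. Among those lower in both they include LINC00391, LINC01630, LINC01852 and LINC01896 in each pair and LINC00708 in the second. Among those higher in both they include LINC01756 in each pair and LINC02600 in the first. Their recurrence can follow in part from the rule, and the shares without such members were not tested. No member was called in opposite directions in the first pair and 1 in the second. LINC01707 was called lower in N against bRG and higher in bIP against aRG, at 1.57 ± 0.778 CPM in N, 20.1 ± 6.99 in bIP, 21.7 ± 19.7 in bRG and 5.63 ± 3.06 in aRG. Its call in bIP against aRG (log2 fold change 1.83, edgeR adjusted p = 0.0433) ended in 6 of 7 removals (0.0683 to 0.226).

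**Figure D4:**
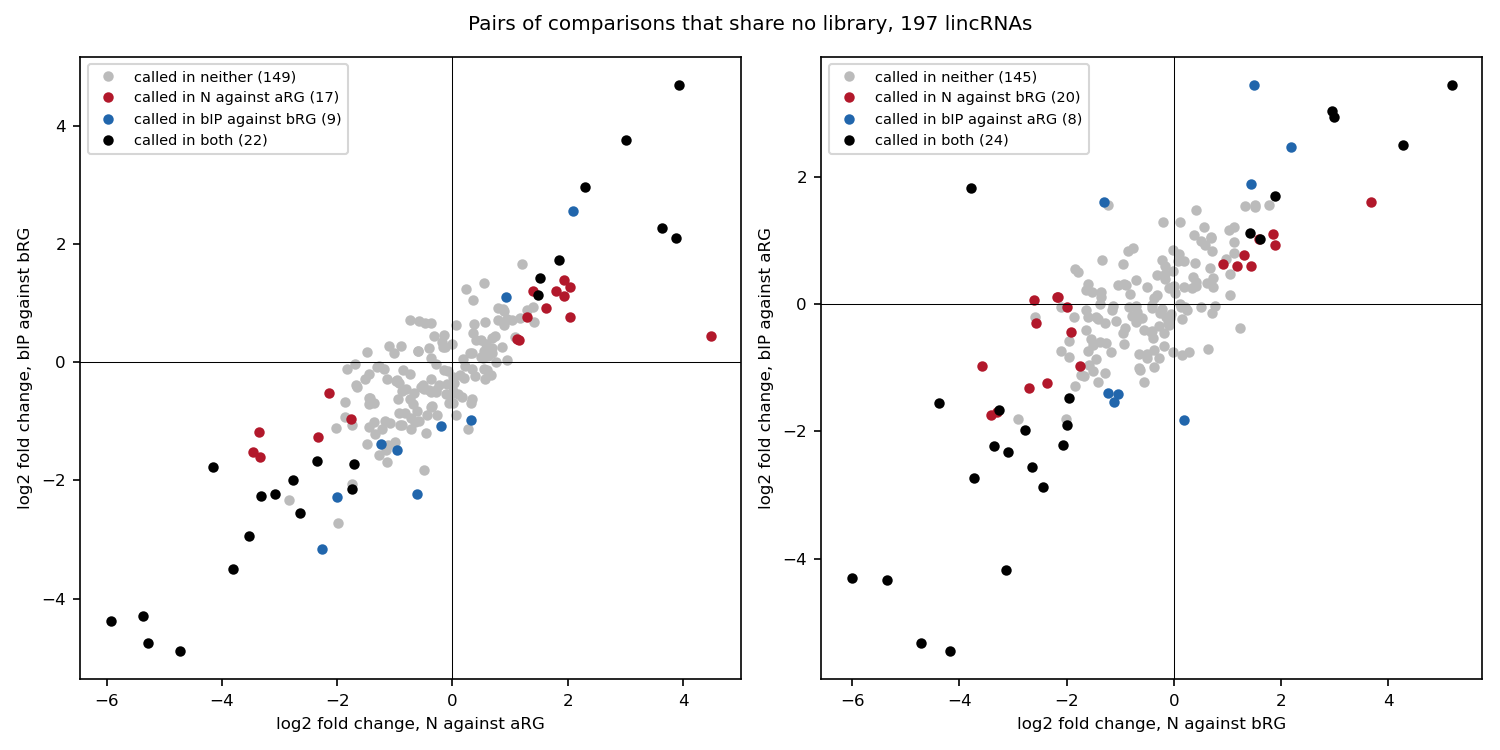
Log2 fold changes of the 197 members in pairs of comparisons that share no library, N against aRG and bIP against bRG (left) and N against bRG and bIP against aRG (right). Each point is a member, coloured by where it was called. On the left the 22 members called in both lie in the lower left or the upper right, and on the right LINC01707 lies in the upper left.

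Some members differed within populations by the number that the library bears. LINC01278 measured 568 CPM in bIP library 3 and 195 and 235 in bIP libraries 1 and 2, 735 and 540 in bRG libraries 3 and 4 and 134 and 148 in bRG libraries 1 and 2, and 610 and 468 in aRG libraries 3 and 4 and 154 and 149 in aRG libraries 1 and 2. N library 1 stood at 226 and the unnumbered N library at 675. In each of the 3 populations the libraries numbered 3 and 4 lay above those numbered 1 and 2 without overlap. The column of the unnumbered N library bears 2, where the neuron labels bear 1 and 3. Read as library 2 it would go against this split, and read as library 3 it would follow it. A fit over the 12 numbered libraries had a mean per population and the number as a term. In it the log2 fold change of LINC01278 for 3 and 4 over 1 and 2 was 1.85 (SE 0.189, edgeR adjusted p = 6.8e-05). This test was chosen after the data were seen, and the labels do not say what the numbers stand for. No difference of LINC01278 between populations was called.

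The same test called 7 members, against 2.61% of the 42584 genes tested. LINC01535 (1.20), LINC00997 (0.89) and LINC00641 (0.71) were higher and LINC02129 (-1.51), LINC00562 (-1.42) and LINC00311 (-2.23) lower in the libraries numbered 3 and 4, all but LINC00641 named after their values were seen. Total counts moved with the number, at 20491835 to 25555111 in radial glia libraries 3 and 4 and 11835004 to 14907405 in radial glia libraries 1 and 2, and their part in these differences was not tested. Library 3 of bRG stood apart in the members too. The share of all genes that stood apart in this library is not given here, so whether members differed from them was not tested. In bRG library 3, 31 members were above 2 times and 56 below 0.5 times the mean of the other bRG libraries (after adding 0.5 CPM). In the other 12 libraries 1 to 23 were above and 5 to 35 below such a mean. Without bRG library 3 edgeR called 61 members in N against bRG (13.3% of all genes) and 38 in bIP against bRG (8.52%). It called 54 in N against aRG (13.7%) and 51 in bIP against aRG (11.6%). Calls over all genes became more frequent in the same fits. Of genes with at least 1000 counts 26.2%, 19.3%, 27.9% and 25.7% were called in these comparisons, in the same order.

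**Figure D5:**
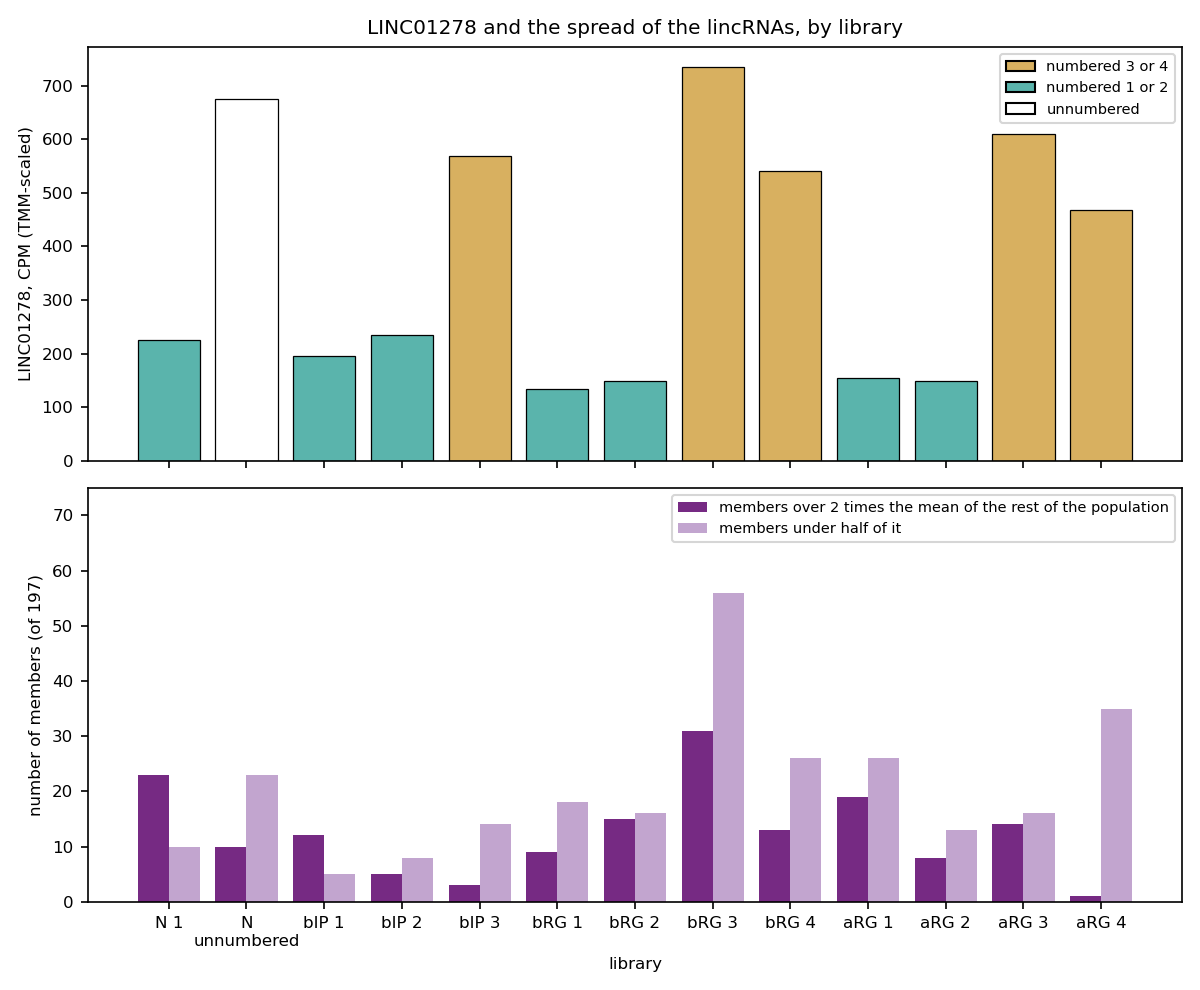
Top, LINC01278 in TMM-scaled CPM per library, coloured by the number in the label. It stood at 134 to 235 CPM in the libraries numbered 1 or 2 and 468 to 735 in those numbered 3 or 4. The unnumbered N library, whose column bears 2, is coloured as neither and stood within the higher range. Bottom, the number of members above 2 times and below 0.5 times the mean of the other libraries of the population, with 31 and 56 in bRG library 3.

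Long noncoding RNAs with other names gave a comparison, from a list of 44 of which 40 were tested. In N against aRG 2 were called higher and 8 lower, in N against bRG 1 and 10, in bIP against aRG 4 and 6, and in bIP against bRG 0 and 5. Over all genes tested 4.44% were higher and 4.54% lower in N against aRG, and 5.03% and 4.28% in N against bRG. In bIP against aRG these shares were 3.74% and 4.31%, and in bIP against bRG 3.98% and 3.46%. SOX2-OT, transcribed across the gene of the stem cell factor SOX2, averaged 10.3 ± 0.0532 CPM in N, 22.0 ± 2.94 in bIP, 183 ± 80.7 in bRG and 173 ± 38.5 in aRG. MIAT rose by 1.56 in N against aRG and KCNQ1OT1, the antisense RNA of an imprinted domain, by 1.64. In bRG against aRG 1 of the 40, CRNDE, was called, against 0.496% of all genes tested. It averaged 26.2 ± 4.49 CPM in bRG and 88.5 ± 23.5 in aRG, which was a log2 fold change of -1.75 (edgeR adjusted p = 0.00161). In N against bIP 1 of the 40, RMST, was called, against 0.0441% of all genes tested. It averaged 2.67 ± 1.25 CPM in N and 35.8 ± 12.9 in bIP (log2 fold change -3.73, edgeR adjusted p = 0.0118).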

How the data were processed

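Values are raw read counts by gene symbol in 2 tables as the authors deposited them, without normalization. The members have rows in the larger table, named for gorGor6, and 1 of them also in the smaller, named for hg38, so the larger was used. Only hg38 and STAR are listed, with no role, per the submitters' processing notes. Gorilla RefSeq symbols make up 28.8% of the names in the larger table, against 90% in the smaller, and the larger holds 2104 LINC names against 5. Which genome and annotation each table was counted on is therefore not settled here, and how it bears on the levels was not tested. The gene annotation, the counting tool and its strand setting are not stated in the sources used here. Reads of overlapping genes therefore cannot be told apart. A row with no gene name (0.0035% to 0.0077% of counts) was left out. Columns carry the population and a number. The neuron column numbered 2 has no neuron label of that number, and it is called the unnumbered N library. No library was a duplicate of another of its population (chi-square of 14.3 to 144 for each degree of freedom).

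Counts were tested with edgeR 4.0.16 (R 4.3.3; quasi-likelihood F-test, TMM scaling, filterByExpr with a minimum count of 10) in 1 fit of 13 libraries with a mean per population, with Benjamini-Hochberg adjustment over all genes tested. SEs were taken as the size of the log2 fold change over the square root of F. The test was run on simulated data first. The members, lists and tests were chosen with earlier results of these data known. Named members are the 12 with the most counts, the 6 largest rises and 6 largest falls among called members without overlap in each comparison, a list with known background and those nearest the threshold. Alternatives were DESeq2 1.42.0, its size factors in edgeR, no low-count filter, the number as a block, the 2 populations alone, and the removal of each library. No genome or sequence was used, and positions are not reported here.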

Additional observations from a re-analysis of the deposited data

Results flagged for a closer look

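Among 66 sets of 4 libraries (the named members and the share of counts in members, in bRG and in aRG), 5 held a library far from the other 3, where chance gives about 1 in 20, or 3.3. LINC01537 was highest in bRG library 3 (13.3 CPM) and, within aRG, in aRG library 3 (1.35 CPM). LINC00511 was highest in aRG library 1 (295 CPM) and LINC01852 in aRG library 3 (11.3 CPM). The share of counts in members was lowest in bRG library 3 (0.591%), the library in which MALAT1 took 21.3% of counts. Of the TMM-scaled total the members took 0.864% there, the highest of the 13 libraries, so this outlier turns with the scaling.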

How the results depend on the processing

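No named member changed direction in any alternative for the 79 pairs of member and comparison recomputed, and 41 of the pairs kept their call in every one. The count of members called moved by over 1.5 times with DESeq2 in bIP against aRG (49), bIP against bRG (54) and N against bRG (68). There DESeq2 called 14.3%, 13.9% and 16.5% of all genes, and 24.5%, 23.4% and 26.5% of those with at least 1000 counts. With only the 2 populations compared it moved as much in bIP against aRG (50), where 14.6% of all genes were called. Calls over all genes thus rose in the same settings, and the cause was not tested. In bRG against aRG the count of members was 1 without the low-count filter (0.39% of all genes) and 3 with DESeq2 (1.35%). It was 1 with a term for the numbers 1 and 2 against 3 and 4 (0.582%). In N against bIP it was 1 without the low-count filter (0.099% of all genes) and 5 with DESeq2 (0.868%). With only the 2 populations compared it was 1 (0.0758%). When 1 library was left out, the counts were 36 to 65 for the 4 populations, 16 to 54 in N against aRG, 16 to 61 in N against bRG, 19 to 51 in bIP against aRG, 17 to 38 in bIP against bRG, 0 to 1 in bRG against aRG and 0 to 2 in N against bIP. Over the same removals the share of all genes called ran from 5.54% to 11.6% in bIP against aRG and from 4.93% to 8.52% in bIP against bRG. In bRG against aRG it ran from 0.243% to 0.544%. In removals that kept both N libraries it ran from 8.78% to 14.8% for the 4 populations. There it ran from 7.43% to 13.7% in N against aRG and from 8.12% to 13.3% in N against bRG. In N against bIP it ran from 0.026% to 0.212%. The removals of an N library leave 1 library in N, and calls over all genes in these tests were fewest there. The removals of bRG library 3 from comparisons without bRG were chosen after seeing the data. The mean share of counts in members of N was 0.665% raw and 0.771% of the TMM-scaled total. With the replicate number as a block, 2 members were called in bRG against aRG (0.662% of all genes). In bIP against aRG 34 were called (7.9%), and in bIP against bRG 34 (7.56%). Same-numbered libraries correlated at -0.0369 to 0.184 in bRG and aRG, 0.0304 to 0.109 in bIP and aRG and -0.00138 to 0.0516 in bIP and bRG, so not every pair was over 0.1 and the numbers were not taken to pair the libraries. Not every library correlated best with its own number. The numbers 1 and 2 against 3 and 4 did go with differences in expression, of 1110 genes over 12 libraries. No paired analysis was made for N because the number of 1 of its 2 libraries is not settled. With 2 N libraries and members of few counts, depth and replication limit which members could be called.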

Other observations

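LINC00672 is the single member with rows in both deposited tables, with 3609 counts in the smaller and 7224 in the larger. In CPM without TMM scaling, its mean level in the smaller table was 30.7 in N, 40.4 in bIP, 33.3 in bRG and 25.2 in aRG. In the larger table it was 29.0 in N, 40.0 in bIP, 31.2 in bRG and 24.0 in aRG, in the same order. LINC00665, on the list with known background, has a row that is listed at 0 in every library.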
